A study of Mus musculus with 12 samples.

Results

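The 6 genes described here encode the transcription factors FOXO1, FOXO3 and KLF2 and 3 receptors, IL7R, CCR7 and S1PR1, that are well known in lymphocytes as part of the programme these factors control. They were taken from the deposited table by gene symbol, and all 6 were present among its 11022 genes. The samples were 12 cultures of P14 cytotoxic T lymphocytes (CTL), grown from CD8 T cells of mice that carry a transgenic T cell receptor (TCR) for the lymphocytic choriomeningitis virus peptide gp33-41. All 12 had been activated for 48 h and then expanded for 5 days with interleukin 2 at 20 ng/mL, so the unstimulated CTL were antigen-experienced effector cells and not naïve cells. On day 7, in medium with the same interleukin 2, 3 cultures stayed unstimulated and 3 received 100 ng/mL gp33-41 for 4 h (the TCR group). A further 3 received the peptide with 10 µM IC87114, which blocks the p110δ form of the lipid kinase PI3K (PI3K inhibitor group), and 3 received it with 2 µM PD184252, an inhibitor of the kinases MEK1/2 that switch on ERK1/2 (MEK inhibitor group). The study's methods name 3 mice as the source of 3 biological replicates per condition, so the spread given below is over these cultures.

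As background, FOXO transcription factors enter the nucleus and act when the kinase AKT, which lies downstream of PI3K, is quiet, and are phosphorylated and exported when it is active. In T cells FOXO1 is known to drive Klf2, Il7r and Ccr7, and KLF2 in turn is known to drive S1pr1. The receptors at the end of this chain direct lymphocytes through lymphoid tissue: CCR7 brings cells into lymph nodes, S1PR1 lets them leave, and IL7R carries the survival signal of interleukin 7. The localisation of FOXO proteins was not part of these data, which hold mRNA only.

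In outline, the 6 genes did not move as a block. TCR triggering took S1pr1 mRNA down to a few reads per library, and the other 5 genes were not called in either direction. Ccr7 was higher by less than 2-fold, a difference that depended on the scaling. MEK inhibition during triggering raised Klf2 and Il7r above the TCR level. With PI3K p110δ inhibition Ccr7, Il7r and Klf2 were higher, by less than 2-fold in the values as deposited. In the fit without a replicate block the Klf2 difference rested on few cultures and on the settings. Within equal replicate numbers Klf2 was higher in 3 of 3 pairs. Neither inhibitor group had S1pr1 at its unstimulated level.

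The genes lie on 5 chromosomes. On GRCm38 (mm10), with GENCODE M21 coordinates, Klf2 (Entrez 16598) is at chromosome 8, 72319033 to 72321656, plus strand. Il7r (Entrez 16197) is at chromosome 15, 9505788 to 9530176, minus strand, and Ccr7 (Entrez 12775) at chromosome 11, 99144196 to 99155077, minus strand. S1pr1 (Entrez 13609) and Foxo1 (Entrez 56458) are both on chromosome 3, at 115710433 to 115715072 on the minus strand and at 52268336 to 52353221 on the plus strand. Foxo3 (Entrez 56484) is at chromosome 10, 42181841 to 42276755, minus strand. Of the 100-base stretches of their transcripts, 0% occurred in transcripts of another gene. The exons of Foxo1 overlap those of the opposite-strand gene Gm20402 over 674 bases, and since strand use in counting is not stated, reads there cannot be told apart.

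RefSeq promoter windows on GRCm38.p6, from 250 bases before to 50 after the start site, were matched for 4 of the 6 genes: Klf2, Il7r, Foxo1 and Foxo3. The first 200 bases of the Klf2 window are shown because Klf2 had the largest change among the 6 genes on MEK inhibition. Separately, ERK5, a relative of ERK1/2 in the MEK5, ERK5 and MEF2 axis, is known to act on Klf2 through MEF2 proteins. The MEK inhibitor used here is directed at MEK1/2, and any part of that axis in the Klf2 change was not tested. The stretch is chr8:72318812-72319011, plus strand, and the capitals mark a match to the MEF2 consensus motif that begins 118 bases before the start site.
Klf2 promoter: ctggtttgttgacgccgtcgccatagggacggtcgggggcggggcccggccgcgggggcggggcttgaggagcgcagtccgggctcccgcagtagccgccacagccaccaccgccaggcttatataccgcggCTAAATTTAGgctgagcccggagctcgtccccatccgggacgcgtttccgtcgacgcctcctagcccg
A MEF2 match on either strand was found in 3.19% of the 32851 windows in the RefSeq table, and none was found in the windows of Il7r, Foxo1 or Foxo3. The forkhead motif GTAAACA, searched on both strands, was absent from all 4 windows and present in 3.65% of all windows. The CACCC box of KLF factors, again on both strands and not overlapping the MEF2 match, was present 1 time, in the Klf2 window, against 57.5% of all windows. These matches are descriptions of letters in a short window and not evidence of binding.

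**Figure D1:**
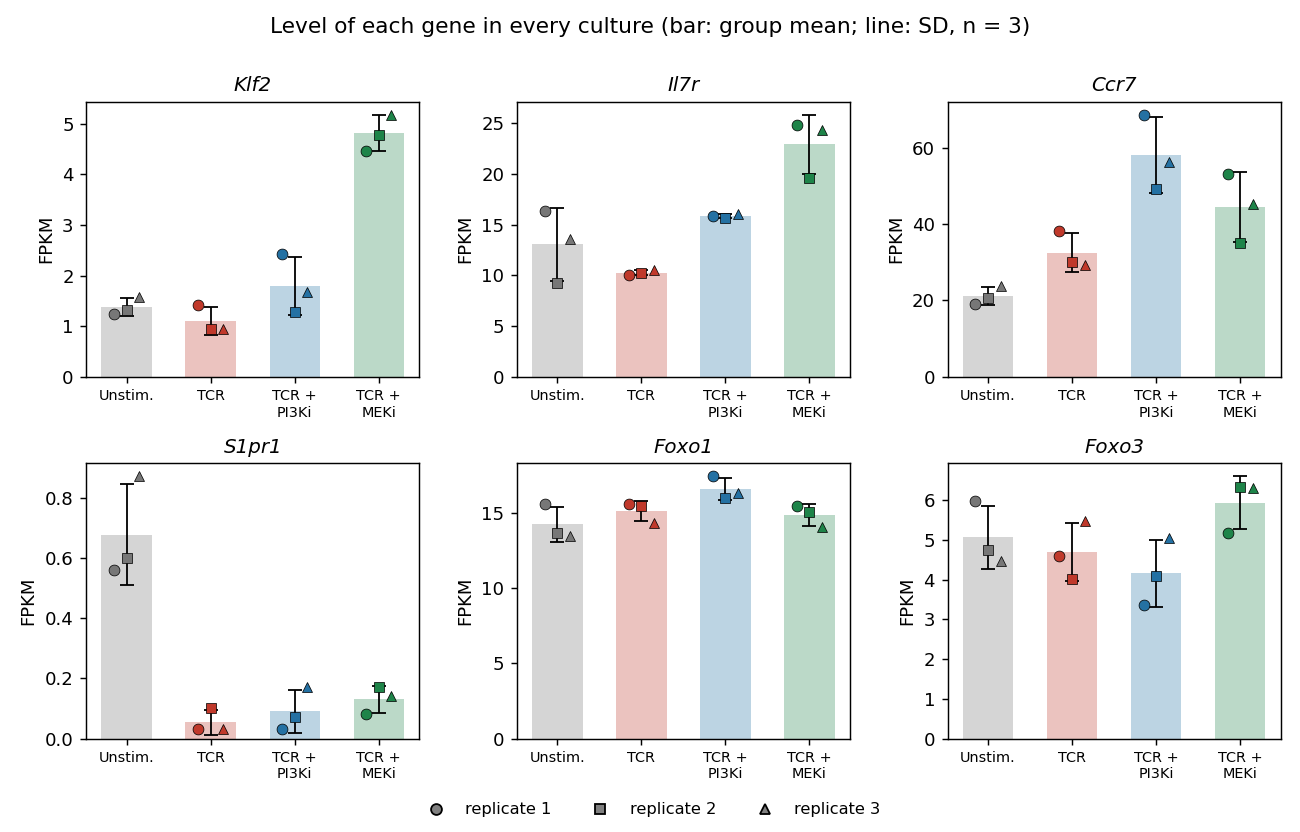
Level in FPKM (linear axes from 0) of each of the 6 genes in the 12 cultures. Points are cultures with the replicate number as marker shape, bars are group means and lines are SD (n = 3). Klf2 with the MEK inhibitor lies between 4.47 and 5.18, above all 9 other cultures, and S1pr1 after triggering lies at or below 0.17 in all 9 stimulated cultures against at least 0.56 in the unstimulated ones.

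Depth was known only approximately, because the table holds FPKM (fragments scaled to exon length and library size) and not counts. Steps between low FPKM values gave an effective depth of 7830000 to 13280000 reads per library, and 2 to 73 genes per library were listed at 0. Of the markers checked, 7 of 8 CTL genes were in the table, with a summed level of 10107 to 16417 FPKM over the 12 cultures, and 0 of 6 B cell and 0 of 4 erythroid genes were listed. The 2 of 8 myeloid genes in the table summed to 0.5 to 1.94 FPKM. The 2 of 3 natural killer genes summed to 73.2 to 117 FPKM, nearly all of it Eomes, which CTL also express, while Klrb1c fell on triggering from 5.39 ± 0.826 to 1.79 ± 0.142. The 2 of 3 CD4 T cell genes summed to 5.27 to 11.3 FPKM, most of it Zbtb7b, and Cd4 itself was at 0.773 ± 0.293 unstimulated, 2.69 ± 0.168 with TCR, 2.94 ± 0.875 with PI3K inhibition and 0.45 ± 0.193 with MEK inhibition. The part of other cells in the results below was not tested. In bulk RNA, fewer cells that express a gene and less RNA of that gene per cell cannot be told apart.

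The first comparison asked what 4 h of antigen did to this programme in effector cells. S1pr1 fell, Ccr7 was moderately higher, and for Klf2, Il7r, Foxo1 and Foxo3 no difference passed the test in the values as deposited. A gene was called where its limma adjusted p was below 0.05 and its change exceeded 2-fold, with Benjamini-Hochberg adjustment over all 11022 genes. By this rule 1 of the 6 genes was called, S1pr1, against 20.0% of all genes. By adjusted p alone it was 2 of 6, S1pr1 and Ccr7, against 68.6% of all genes. The median log2 change of the 6 was -0.21, and that of all genes -0.01.

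S1pr1, the receptor for sphingosine 1-phosphate (S1P), was at 0.56, 0.60 and 0.87 FPKM in the 3 unstimulated cultures and at 0.03, 0.10 and 0.03 FPKM in the TCR group. These values correspond to about 19, 19 and 35 reads before triggering and about 1, 3 and 1 after it. The groups did not overlap, and every triggered culture was at or under the floor of 3 reads. That floor averaged 0.0999 FPKM per TCR library, and the unstimulated mean of 0.677 ± 0.169 FPKM was 6.77 times as high. The floor is a counting threshold and not an upper limit for the TCR level, so this ratio is not a minimum for the fall. The TCR total of about 5 reads had an exact Poisson 95% interval of 1.62 to 11.7 reads. The fitted log2 change on the log2(FPKM + 0.1) scale was -2.35 ± 0.31 (SE, limma adjusted p = 8.26e-06), which depends on the pseudocount and is not a bound. With a pseudocount of 1 it was -0.67, under the 2-fold threshold, because S1pr1 is a low gene even before triggering.

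Ccr7, the receptor for the lymph node chemokines CCL19 and CCL21, was at 18.98, 20.59 and 23.68 FPKM unstimulated and at 38.35, 29.99 and 29.22 FPKM after triggering. The groups did not overlap, with all triggered cultures the higher. The ratio of means was 1.54, and the fitted log2 change was 0.62 ± 0.151 (limma adjusted p = 0.00207), short of 2-fold. With every library rescaled to a common sum of FPKM the log2 change of Ccr7 was 0.21 (adjusted p = 0.177), so its difference from the unstimulated level depends on the scaling. That rescaling moved the median of all genes by -0.41 in this comparison, because the FPKM sums of the libraries ranged from 470420 to 666922.

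Klf2 and Il7r overlapped between the groups. Klf2 was at 1.23, 1.32 and 1.58 FPKM unstimulated and at 1.41, 0.94 and 0.95 FPKM with TCR, where 1 triggered culture lay among the unstimulated ones. Its log2 difference was -0.31 (95% interval -0.75 to 0.12, limma adjusted p = 0.186). Il7r was at 16.37, 9.23 and 13.56 FPKM unstimulated and at 9.99, 10.23 and 10.48 FPKM with TCR. The unstimulated cultures of Il7r were far apart and the triggered ones close together, with a coefficient of variation of 27.6% against 2.4%. Its log2 difference was -0.31 (95% interval -0.63 to 0.01, adjusted p = 0.081). It was -0.13 (adjusted p = 0.421) without unstimulated replicate 1 and -0.54 (adjusted p = 0.000487) without unstimulated replicate 2. On the common FPKM sum the log2 differences were -0.70 for Klf2 and -0.72 for Il7r, with adjusted p of 0.0035 and 0.000387, again without reaching 2-fold.

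Foxo1, the main FOXO factor of T cells, had the narrowest relative range of the 6 genes over the 12 cultures, at 13.43 to 15.54 FPKM unstimulated and 14.31 to 15.56 FPKM with TCR. Its log2 difference of 0.09 (95% interval -0.07 to 0.25, limma adjusted p = 0.295) turned to -0.32 (adjusted p = 0.00202) on the common FPKM sum, so no direction is given. Foxo3, a related factor with overlapping targets, ranged from 4.48 to 5.98 FPKM unstimulated and from 4.01 to 5.47 FPKM with TCR, a log2 difference of -0.11 (95% interval -0.45 to 0.23) that became -0.51 (adjusted p = 0.0115) on the common FPKM sum. Foxo4, the remaining family member in the table, fell from 4.52 ± 0.244 to 1.09 ± 0.395 FPKM, a log2 change of -2.02 ± 0.238 (adjusted p = 2.49e-06). Per length of exon, Foxo1 was thus the most abundant of the FOXO mRNAs in both groups.

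**Figure D2:**
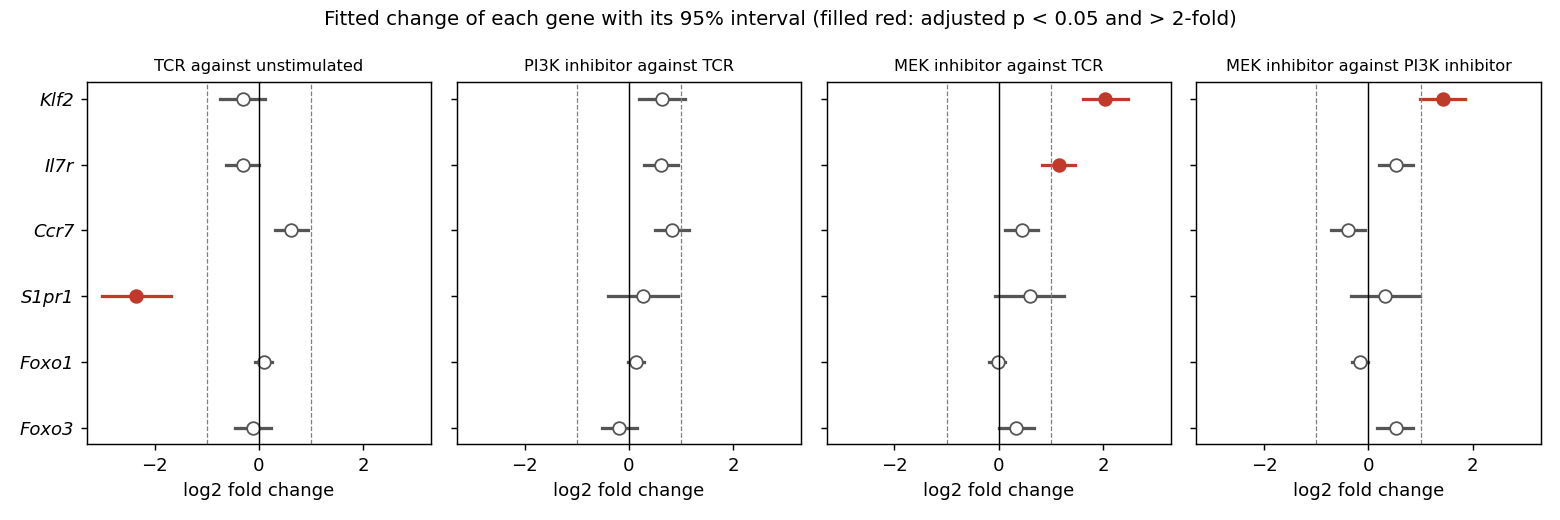
Fitted log2 fold change (horizontal axes, log2 scale) of each gene in 4 comparisons, with 95% intervals from limma. Filled red points passed the adjusted p and 2-fold thresholds, and dashed lines mark 2-fold. In these 4 panels S1pr1 is called for triggering alone, Klf2 and Il7r for MEK inhibition against TCR, Klf2 also against PI3K inhibition, and none of the 6 for PI3K inhibition against TCR.

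Of 28 further genes linked to FOXO1, KLF2 or quiescence, 9 were called higher and 9 lower after triggering, with a median log2 change of 0.10 against -0.01 for all genes. On the common FPKM sum 8 were higher and 11 lower. Of all 11022 genes, 2923 were called on that sum for this comparison, against 2202 as deposited. Id3, an inhibitor of E protein transcription factors, fell from 6.51 ± 1.22 to 0.71 ± 0.0693 FPKM. Pik3ip1, a negative regulator of PI3K, fell from 3.80 ± 0.231 to 0.467 ± 0.0289 FPKM. Slfn2, Ctla4 and Bcl6 rose by 2.76, 2.69 and 2.58 on the log2 scale. Ctla4 encodes an inhibitory receptor and BCL6 is a transcriptional repressor known for its part in follicular helper T cells. Tcf7, the memory-associated factor TCF1, rose from 1.22 ± 0.433 to 3.38 ± 0.293 FPKM.

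Of 17 other trafficking receptors, 4 were called higher and 7 lower after triggering, with a median log2 change of -0.82. On the common FPKM sum 2 were higher and 9 lower. The inflammatory chemokine receptors Ccr2, Ccr4 and Cxcr3 fell by 2.51, 2.08 and 1.61 on the log2 scale, and the adhesion receptor Cd44 rose by 2.59. In the 12 genes that handle S1P or desensitise its receptors, 2 were called higher and 1 lower, or 2 and 4 on the common FPKM sum. Sphk1, the kinase that makes S1P, was listed at 0 in all 3 unstimulated cultures and at 12.3 ± 1.55 FPKM after triggering. Spns2, an S1P exporter, rose from 0.40 ± 0.164 to 10.3 ± 1.93 FPKM, and Sgpp1, an S1P phosphatase, fell from 20.2 ± 1.54 to 7.85 ± 0.547 FPKM.

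Among the 10 other KLF genes, Klf9 was the 1 called gene, from 0.767 ± 0.132 to 7.05 ± 1.55 FPKM. Of 27 genes between PI3K and FOXO, 4 were called lower and 0 higher, at a median log2 change of -0.37, and on the common FPKM sum 8 were lower. The named ones were Sgk3, a kinase related to AKT, Pik3cg, the γ catalytic subunit, and Inpp5d, the phosphatase SHIP1, which fell by 2.06, 1.92 and 1.51 on the log2 scale. Of 18 genes of interleukin 7 receptor signalling or Il7r control, 3 were higher and 2 lower, and on the common FPKM sum 1 was higher and 3 lower. Stat5a, Stat5b and Gfi1, a repressor of Il7r, rose by 3.40, 1.41 and 1.03, and Socs1 and Bcl2 fell by 1.71 and 1.44. Of 7 genes of the MEK5, ERK5 and MEF2 axis, Hdac5 alone was called, lower by a log2 change of -1.09, and with quantile normalisation 0 of the 7 were called.

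The second comparison asked what PI3K p110δ activity contributed during triggering. No culture received an inhibitor without the peptide. An effect on the response to the peptide therefore cannot be told apart from an effect on cells kept in interleukin 2. Ccr7 and Il7r were higher with the inhibitor than with the peptide alone, by 1.79 and 1.55 times in group means, and Klf2 by 1.63 times with cultures that overlapped. By the adjusted p and 2-fold rule 0 of the 6 genes were called, against 1.88% of all genes. By limma adjusted p alone 3 of 6 passed, against 25.6% of all genes. The median log2 change of the 6 was 0.44, and that of all genes 0.02.

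Ccr7 was at 68.75, 49.22 and 56.43 FPKM with the PI3K inhibitor, and each of these values lay above the highest TCR culture at 38.35. The log2 change was 0.83 ± 0.151 (limma adjusted p = 0.00106), and on the common FPKM sum it was 1.02, past the 2-fold threshold. That rescaling shifted all genes by a median of 0.18 in this comparison, which bears on each common-sum value given for it. Il7r was at 15.85, 15.63 and 16 FPKM, a spread of 1.2%, and again did not overlap the TCR cultures. The log2 change of Il7r was 0.62 ± 0.151 (adjusted p = 0.0072). Klf2 was at 2.42, 1.28 and 1.68 FPKM, of which the lowest lay below the highest TCR culture. Within equal replicate numbers Klf2 was higher in 3 of 3 pairs, and with replicate number as a block its limma adjusted p was 0.0254. The log2 change of Klf2 was 0.64 ± 0.205 (adjusted p = 0.0344), a value that rested on few cultures. The adjusted p rose to 0.135 without inhibitor replicate 1, where the log2 change was 0.41, to 0.0689 without inhibitor replicate 3, and to 0.101 and 0.108 without TCR replicates 2 and 3. It also depended on the settings, at 0.0666 with quantile normalisation and 0.0919 with only the compared groups fitted. On the common FPKM sum the log2 change of Klf2 was 0.80 (limma adjusted p = 0.00429).

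S1pr1 was at 0.03, 0.07 and 0.17 FPKM with the PI3K inhibitor, about 1, 2 and 6 reads. In total about 9 reads were counted against about 5 in the TCR group, with exact Poisson 95% intervals of 4.12 to 17.1 and 1.62 to 11.7 that cover counting error only. A difference was not detectable at this depth (log2 difference 0.27, 95% interval -0.39 to 0.94). Foxo1 ranged from 16 to 17.40 FPKM, above all 3 TCR cultures, at a log2 difference of 0.13 (95% interval -0.02 to 0.29, limma adjusted p = 0.202), which became 0.31 (adjusted p = 0.00731) on the common FPKM sum. Foxo3 ranged from 3.36 to 5.05 FPKM, a log2 difference of -0.18 (95% interval -0.52 to 0.16), which became 0.00 on the common FPKM sum.

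The linked quiescence genes included 4 of 28 called higher and 0 lower with the PI3K inhibitor. Their median log2 change was 0.45, against 0.02 for all genes, and on the common FPKM sum 8 were higher and 0 lower. Of all 11022 genes, 226 were called on that sum for this comparison, against 207 as deposited. Trp53inp1, a stress and autophagy gene, was at 3.93, 5.94 and 5.52 FPKM with TCR and at 15.04, 17.4 and 15.64 FPKM with the inhibitor, so the groups lay well apart. The log2 change of Trp53inp1 was 1.64 ± 0.132 (limma adjusted p = 1.09e-06). Pik3ip1 rose from 0.467 ± 0.0289 to 1.20 ± 0.0321 FPKM, well under its unstimulated 3.80. Irs2, an adaptor for insulin and cytokine receptors, and Pdcd4, a repressor of translation, rose by 1.10 and 1.09 on the log2 scale. Tcf7 was not called, at 3.05 ± 0.365 FPKM.

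Among the 17 other trafficking receptors, 1 was called higher (Ccr2) and 1 lower (S1pr3), and on the common FPKM sum 3 were higher and 0 lower. Ccr2, the receptor for CCL2, was at 34.2 ± 5.53 FPKM with TCR and 69.9 ± 2.66 with the inhibitor. S1pr3, which is outside the naming rule and is named after its values were seen, was low in both groups, at 0.583 ± 0.178 and 0.227 ± 0.0252 FPKM. Sphk1 fell from 12.3 ± 1.55 to 3.37 ± 0.479 FPKM, as the 1 called gene of 12 in S1P handling. Of the 10 KLF, 27 PI3K to FOXO, 18 interleukin 7 and 7 MEF2 axis genes, 0 were called by the limma rule. An unadjusted limma p under 0.05 was found for 2, 11, 7 and 3 of them. The share of all genes at that unadjusted p was not computed, and 25.6% already passed adjusted p alone. These counts are therefore not a result about the lists. The median log2 change was -0.02 for the KLF genes, 0.16 for the PI3K to FOXO genes, -0.08 for the interleukin 7 genes and -0.01 for the MEF2 axis.

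The third comparison asked what MEK1/2 activity contributed in triggered cultures, again without a group given the inhibitor alone. Klf2 and Il7r rose with the MEK inhibitor, Klf2 by 4.37 times and Il7r by 2.24 times in group means. Thus 2 of the 6 genes were called, both higher, against 3.49% of all genes, and 3 passed adjusted p alone, against 37.1% of all genes. The median log2 change of the 6 was 0.52, and that of all genes 0.01. The comparison shares its TCR cultures with the PI3K comparison, so the values of both stand side by side without a test of overlap.

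Klf2 was at 4.47, 4.78 and 5.18 FPKM with the MEK inhibitor, or about 65, 84 and 87 reads. The 3 cultures lay close together and far above the TCR cultures, which held about 17 to 25 reads. The log2 change was 2.05 ± 0.205 (limma adjusted p = 3.08e-06), the 62nd largest of 11022 genes in absolute size, and ranged from 1.47 to 2.30 over the alternative settings. Il7r was at 24.85, 19.60 and 24.37 FPKM, with its lowest culture above all those of the TCR and PI3K inhibitor groups. The log2 change of Il7r was 1.15 ± 0.151 (adjusted p = 4.22e-05), and ranged from 1.08 to 1.41.

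Ccr7 was at 53.24, 34.98 and 45.31 FPKM with the MEK inhibitor, where the lowest culture lay below the highest TCR culture. Within equal replicate numbers Ccr7 was higher in 3 of 3 pairs. Its log2 change of 0.44 ± 0.151 (limma adjusted p = 0.0327) was short of 2-fold, and it lost the adjusted p threshold in turn without MEK inhibitor replicate 1 (log2 change 0.30, adjusted p = 0.154) or 3, or TCR replicate 2 or 3 (adjusted p of 0.0885 to 0.11). S1pr1 was at 0.08, 0.17 and 0.14 FPKM, about 2, 5 and 4 reads. Its total of about 11 reads (exact Poisson 95% interval 5.49 to 19.7) did not differ detectably from the TCR total at this depth, and the log2 difference was 0.60 (95% interval -0.07 to 1.26). Within equal replicate numbers S1pr1 was higher in 3 of 3 pairs, all at few reads. Beside the rise of Klf2, a rise of S1pr1 within 4 h was thus not detectable by the fit at this depth. Foxo1 ranged from 14.05 to 15.47 FPKM, a log2 difference of -0.02 (95% interval -0.18 to 0.13) that turned to 0.24 (adjusted p = 0.0223) on the common FPKM sum. That rescaling shifted all genes by a median of 0.26 in this comparison, so 0.24 was no more than the general shift. Foxo3 ranged from 5.18 to 6.33 FPKM, with a log2 difference of 0.34 (95% interval 0.00 to 0.68, adjusted p = 0.11) that became 0.59 (adjusted p = 0.00745) on the common FPKM sum.

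Klf3, a relative of KLF2 that represses transcription, was the 1 called gene of the 10 other KLF genes on MEK inhibition, with a median log2 change of 0.50 over the 10. On the common FPKM sum 3 of the 10 were called, all higher. Of all 11022 genes, 525 were called on that sum for this comparison, against 385 as deposited. Klf3 was at 0.84, 1.13 and 0.75 FPKM with TCR and at 2.14, 2.35 and 2.65 FPKM with the MEK inhibitor, without overlap. The log2 change was 1.31 ± 0.214 (limma adjusted p = 0.000274). Klf3 is on the quiescence list as well, where 3 of 28 genes were called higher and 0 lower, with a median log2 change of 0.32. The others were Pik3ip1, at 1.14 ± 0.218 FPKM, and Satb1, a chromatin organiser, at 67.0 ± 4.77 FPKM against 32.5 ± 1.54 with TCR. Tcf7, at 3.08 ± 0.934 FPKM, was not called.

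Of 17 other trafficking receptors, 3 were called higher and 1 lower with the MEK inhibitor, and 3 and 0 on the common FPKM sum. Ccr4, a receptor for skin and inflammatory chemokines, was at 8.97, 4.16 and 6.24 FPKM, against 1.88, 1.34 and 1.39 FPKM with TCR and 9.81, 5.33 and 5.86 FPKM unstimulated. Itga4, an integrin subunit, and Gpr183, an oxysterol receptor that positions lymphocytes, rose by 1.35 and 1.07 on the log2 scale, and Cxcr3 fell by 1.04. Both S1P genes that rose on triggering fell with the MEK inhibitor, Spns2 to 1.07 ± 0.334 FPKM and Sphk1 to 1.86 ± 0.125 FPKM, as the 2 called genes of 12, beside 1 that was called higher on the common FPKM sum. Of the 27 PI3K to FOXO, 18 interleukin 7 and 7 MEF2 axis genes 0 were called by the limma rule, while 13, 14 and 4 had an unadjusted p under 0.05. Here too the share of all genes at unadjusted p was not computed, while 37.1% passed adjusted p alone. The median log2 changes of these 3 lists were 0.19, 0.14 and 0.23, and on the common FPKM sum 2 of the interleukin 7 genes were called higher. With quantile normalisation 1 of those 18 was called higher and 1 lower.

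**Figure D3:**
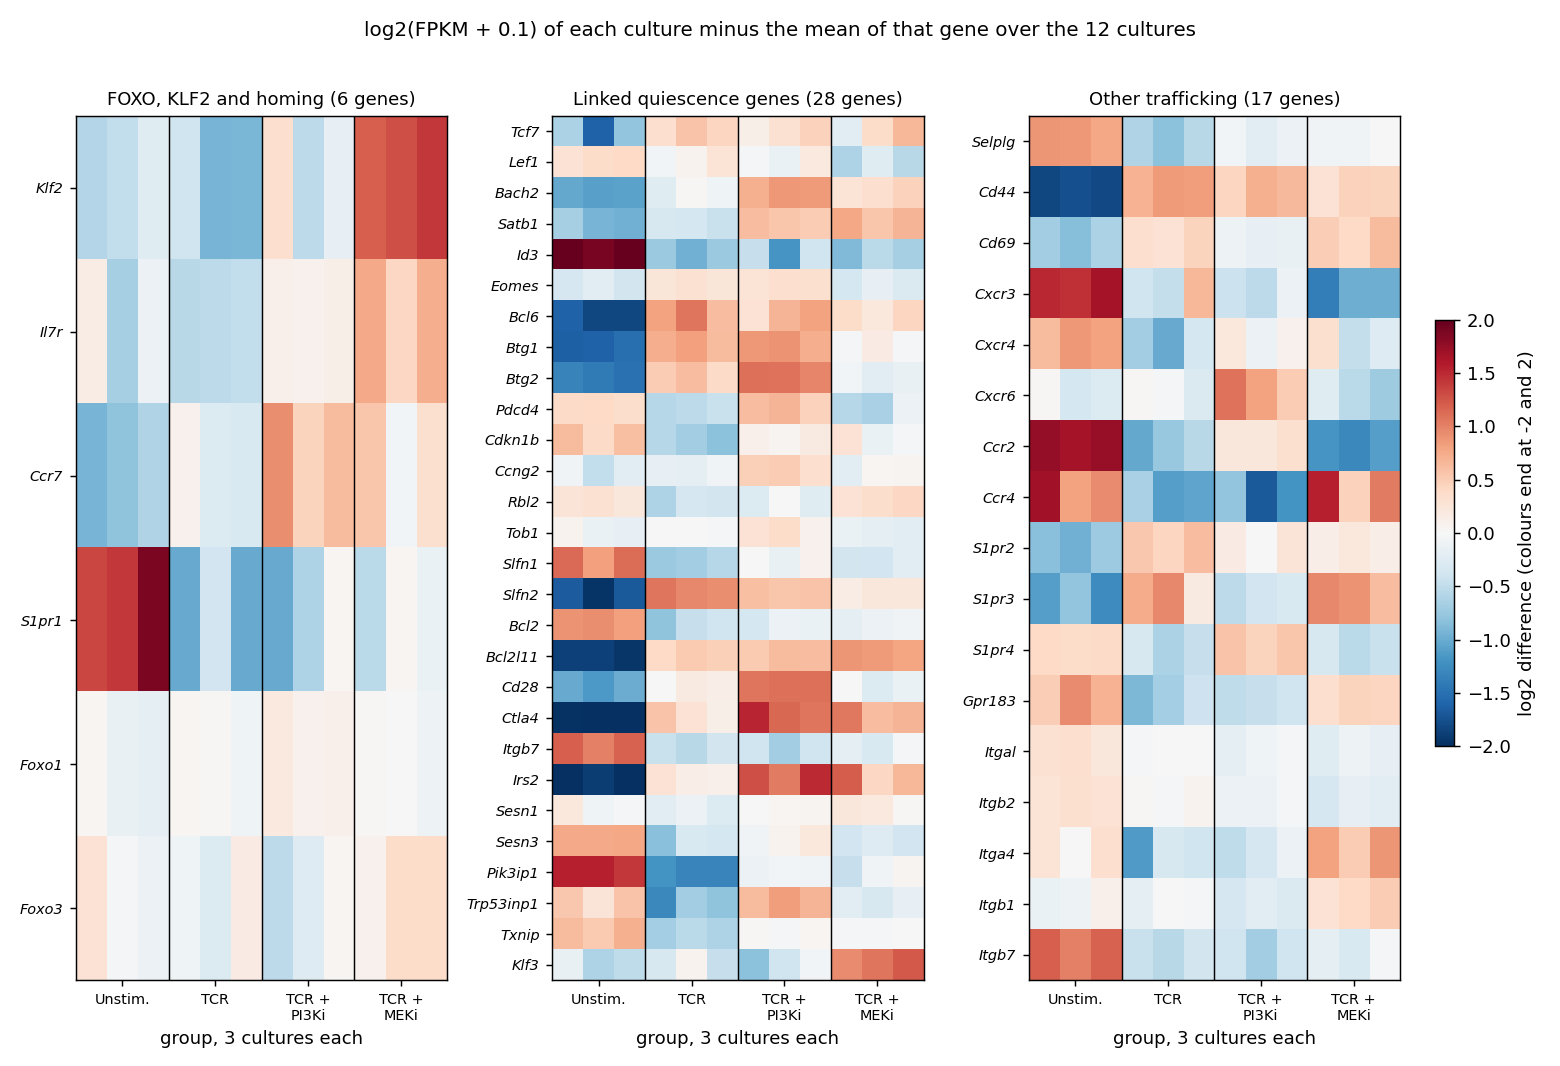
Colour shows log2(FPKM + 0.1) of each culture minus the mean of that gene over the 12 cultures, for the 6 genes (left), 28 linked quiescence genes (middle) and 17 other trafficking receptors (right), with 3 cultures per group between the black lines. Klf2 and Klf3 are reddest with the MEK inhibitor, while Id3 and Ccr2 are reddest in unstimulated cultures.

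The inhibitor groups were next set against each other. Klf2 was 2.68 times higher in group means under MEK than under PI3K inhibition, and the cultures did not overlap. By the adjusted p and 2-fold rule it was the 1 gene of 6 called, against 3.09% of all genes, with a log2 change of 1.42 ± 0.205 (limma adjusted p = 0.000117). By adjusted p alone 3 of 6 passed, Klf2, Il7r and Foxo3, against 28.9% of all genes. Il7r and Foxo3 were both higher with the MEK inhibitor, each by a log2 change of 0.52, with adjusted p of 0.0166 and 0.0246. Both leaned on few cultures, as the adjusted p of Il7r rose to 0.0655 without MEK inhibitor replicate 1 and 0.0638 without replicate 3, and that of Foxo3 to 0.102 and 0.0603 without PI3K inhibitor replicates 1 and 2 and to 0.0806 and 0.0844 without MEK inhibitor replicates 2 and 3. Ccr7 pointed the other way, at a log2 difference of -0.39 (95% interval -0.71 to -0.07, adjusted p = 0.065), and its cultures overlapped. With replicate number as a block the adjusted p of this difference was 0.0224. The intervals of S1pr1 (-0.34 to 0.99) and Foxo1 (-0.32 to 0.00) reached 0.

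Among the listed genes, the inhibitor groups differed in both directions. In the quiescence list 1 of 28 was called higher (Klf3) and 3 lower: Cd28, the costimulatory receptor, Btg2, an antiproliferative gene, and Pdcd4. The fall was 1.23 for Cd28, 1.19 for Btg2 and 1.03 for Pdcd4 on the log2 scale, and on the common FPKM sum 2 of the 3 were called. Of all 11022 genes, 363 were called on that sum for this comparison, against 341 as deposited. Of the 17 trafficking receptors 3 were higher and 2 lower, with Ccr4 and Itga4 higher by log2 changes of 2.24 and 1.05, and Ccr2 and Cxcr6, the receptor for CXCL16, lower by -1.45 and -1.30. The third higher receptor was S1pr3, at 0.667 ± 0.0945 FPKM, again named after its values were seen. Spns2 and Socs1, a brake on cytokine signalling, were the called genes of their lists, at log2 changes of -3.04 and 1.62. In the PI3K to FOXO list and the MEF2 axis 0 genes were called by the limma rule, and 13 and 2 had an unadjusted p under 0.05. Again no share of all genes was computed at unadjusted p, while 28.9% passed adjusted p alone.

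**Figure D4:**
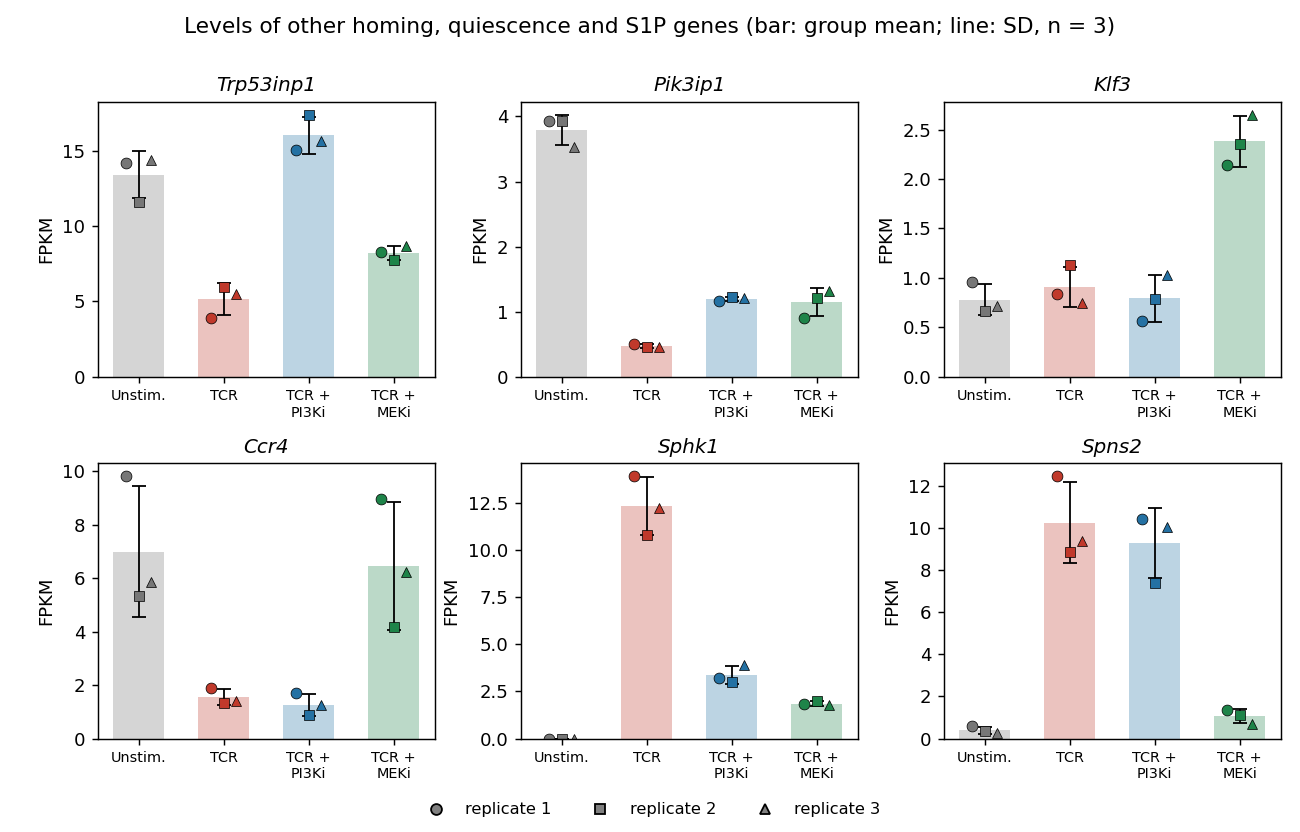
Level in FPKM (linear axes from 0) of 6 listed genes, picked for display after their values were seen, in the 12 cultures. Points are cultures, bars are group means and lines are SD (n = 3). Trp53inp1 is lowest with TCR (3.93 to 5.94), Klf3 is highest with the MEK inhibitor (2.14 to 2.65), and Sphk1 is listed at 0 in the 3 unstimulated cultures.

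The last comparisons asked how far each inhibitor group stood from CTL that had seen no peptide. With the PI3K inhibitor 2 of the 6 genes were called against unstimulated cells, Ccr7 higher and S1pr1 lower, against 14.6% of all genes. By adjusted p alone Foxo1 joined them, making 3 of 6 against 62.5% of all genes. Ccr7 was 2.76 times its unstimulated mean (log2 change 1.45 ± 0.151, limma adjusted p = 8.93e-07) and S1pr1 fell by 2.08 on the log2 scale (adjusted p = 3.75e-05). With a pseudocount of 1 the log2 change of S1pr1 was -0.62, below the 2-fold threshold. The Foxo1 difference was 0.22 (adjusted p = 0.0166), -0.01 on the common FPKM sum, and past the threshold no longer without unstimulated replicate 2 or 3 or inhibitor replicate 1 (adjusted p of 0.0615 to 0.0664).

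With the MEK inhibitor 3 of the 6 genes were called against unstimulated cells, against 13.4% of all genes, with Klf2 and Ccr7 higher and S1pr1 lower. Il7r passed adjusted p alone, making 4 of 6 against 59.6% of all genes. Klf2 was 3.49 times its unstimulated mean (log2 change 1.74 ± 0.205, limma adjusted p = 3.83e-06), with no overlap, so its level exceeded that of cells not triggered at all. Ccr7 was 2.11 times its unstimulated mean, but its log2 change of 1.06 ± 0.151 was so near the threshold that it was 0.99 without unstimulated replicate 1, 0.92 without MEK inhibitor replicate 1 and 0.91 on the common FPKM sum. Il7r was higher by a log2 change of 0.84 ± 0.151 (adjusted p = 0.000218), which became 1.02, past 2-fold, without unstimulated replicate 1. S1pr1 fell by 1.75 on the log2 scale (adjusted p = 0.000193), and by 0.57 with a pseudocount of 1.

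The listed genes gave these counts against unstimulated cells, beside 14.6% of all genes called under PI3K inhibition and 13.4% under MEK inhibition, in either direction. On the common FPKM sum 1895 and 1663 of all 11022 genes were called, against 1608 and 1478 as deposited. In the quiescence list 11 of 28 were called higher and 5 lower under PI3K inhibition, and 11 and 6 under MEK inhibition. Among the 17 trafficking receptors it was 2 higher and 5 lower with the PI3K inhibitor, or 1 and 6 on the common FPKM sum. With the MEK inhibitor it was 4 and 3, or 3 and 5 on the common FPKM sum. Foxo4 was lower in both groups, and its log2 change was -1.43 under PI3K and -1.58 under MEK inhibition. Of the 10 other KLF genes 2 were higher under PI3K and 3 under MEK inhibition, and 4 of the 27 PI3K to FOXO genes were lower with each.

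The order of the 4 groups differed between the 6 genes. Klf2 and Il7r both ran, from lowest to highest mean, from TCR to unstimulated to PI3K inhibitor to MEK inhibitor. For neither gene did TCR and unstimulated, or unstimulated and PI3K inhibitor, differ at a limma adjusted p under 0.05, although on the common FPKM sum TCR lay below unstimulated for both (adjusted p of 0.0035 and 0.000387). For Ccr7 the order was unstimulated, TCR, MEK inhibitor and PI3K inhibitor, and the last pair did not pass that threshold (adjusted p = 0.065) but did with the replicate block (adjusted p = 0.0224). For S1pr1 it was TCR, PI3K inhibitor, MEK inhibitor and unstimulated, where the 3 stimulated groups could not be separated at this depth. For Foxo1 and Foxo3 no neighbouring pair in the order passed the threshold in the values as deposited. On the common FPKM sum TCR lay below unstimulated for both (limma adjusted p of 0.00202 and 0.0115), a pair that for Foxo1 is not neighbouring. On that sum Foxo1 with TCR also lay below its neighbours in the order, the PI3K and MEK inhibitor groups (limma adjusted p of 0.00731 and 0.0223).

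The genes with the most similar profiles were found by Pearson's r of log2(FPKM + 0.1) over the 12 cultures, as a description without a test, among 10233 genes with a mean of at least 1 FPKM in some group. All correlations share the same libraries and group differences. Klf2 ran most closely with Sac3d1 (r = 0.941), Kcnk6 (r = 0.926) and Acp6 (r = 0.914), and Il7r with Kcnk6 (r = 0.936), Gbp5 (r = 0.927) and Plekha5 (r = 0.92). Kcnk6, a potassium channel gene, thus appeared for both, and Klf2 and Il7r themselves correlated at r = 0.843. Its means were 5.62 unstimulated, 4.63 with TCR, 6.09 under PI3K inhibition and 9.36 FPKM under MEK inhibition. Ccr7 ran with Vps37b (r = 0.963), Acbd5 (r = 0.961) and Sec14l1 (r = 0.932), of which Vps37b rose from 15.8 unstimulated to 32.7 with TCR and 64.5 FPKM with the PI3K inhibitor. S1pr1 ran with Smc1a, Samd10 and Arhgap19 (r of 0.978, 0.974 and 0.973), all highest in unstimulated cultures. The closest values for Foxo1 (Hnrnph2, r = 0.857) and Foxo3 (Gm13375, r = 0.878) were lower. Between members, S1pr1 and Ccr7 correlated at r = -0.71 and S1pr1 and Klf2 at r = -0.107.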

How the data were processed

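Paired-end RNA sequencing of 12 CTL cultures was deposited as FPKM of 11022 genes. Per the study's methods and the submitters' processing notes, the authors aligned reads to mm10 with STAR 2.4.2a, counted them with Subread 1.5.0, filtered low counts, normalised by TMM and computed FPKM with edgeR from total exon length. Replicates were not pooled, and 0 value columns were unassigned. The study tested counts with voom, and counts were not used here. The members and gene lists were chosen with earlier results of these data known.

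From the deposited FPKM, log2(FPKM + 0.1) was fitted with limma 3.58.1 in R 4.3.3 (1 mean per group, 12 cultures, eBayes with trend, two-sided, Benjamini-Hochberg over all genes). The pseudocount understates changes of low genes. Called genes passed an adjusted p under 0.05 and a 2-fold change. Per list and comparison, up to 5 called genes of largest change with a mean of at least 1 FPKM were named, and Tcf7 always. Some listed genes are not reported here and were left out of the lists. The script was tested on simulated data. Effective depth came from steps between low FPKM values and GENCODE M21 exon lengths of 10286 genes. Only 54.4% to 71.7% of low values lay within 0.15 of a whole read (30% would by chance), so read numbers are approximate, and floors and intervals cover counting error only.

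Whether equal replicate numbers mark the same mouse is not stated. After subtraction of group means, cultures that share a number correlated above 0.1 in all 3 pairs for 4 of the 6 comparisons (lowest 0.102), and not for the unstimulated group against TCR (lowest 0.0108) or PI3K inhibitor (lowest -0.0495). A replicate block was therefore an alternative, beside other pseudocounts, a filter, scalings, fits and leaving out each culture.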

Additional observations from a re-analysis of the deposited data

How the results depend on the processing

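Counts of called members under the replicate block were 1 (TCR against unstimulated), 0 (PI3K inhibitor against TCR), 2 (MEK inhibitor against TCR), 1 (MEK against PI3K inhibitor), 2 (PI3K inhibitor against unstimulated) and 3 (MEK inhibitor against unstimulated), as without it. The block also moved the adjusted p of Il7r to 0.0401 for TCR and 0.0406 for PI3K inhibitor, each against unstimulated. For TCR the same-number correlations were weak (r of 0.0924, 0.141 and 0.0108), but each exceeded those with unlike numbers. For PI3K inhibitor this held for replicate 2 alone. A pseudocount of 1 left 0 and 1 called for TCR and PI3K inhibitor against unstimulated, by lowering the fold of S1pr1, and a filter at a mean of 1 FPKM, which removes S1pr1, left 0 and 1. With adjusted p alone the counts were 2 for TCR against unstimulated and 3 for PI3K inhibitor against TCR and for MEK against PI3K inhibitor. On the common FPKM sum 1 gene, Ccr7, was called for PI3K inhibitor against TCR. Leaving out each culture kept the counts, except that MEK inhibitor against unstimulated ranged from 2 to 3.

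Of 534 single-gene values, 509 kept direction and call. This count overstates stability, since for uncalled genes it means staying uncalled, whatever their adjusted p did. The setting with adjusted p alone also reuses the main fit, so no direction could change there. On the common FPKM sum Foxo1 reversed in 4 comparisons: -0.32 for TCR against unstimulated, 0.24 for MEK inhibitor against TCR, and -0.01 and -0.08 for PI3K and MEK inhibitor against unstimulated. The median shift of all genes in these 4 comparisons was -0.41, 0.26, -0.23 and -0.15, in the same order. On that sum Foxo3 moved to 0.00 for PI3K inhibitor against TCR. Leaving out 1 culture gave -0.22 to 0.01 for Foxo3 (TCR against unstimulated), -0.01 to 0.51 for S1pr1 (PI3K inhibitor against TCR) and -0.06 to 0.02 for Foxo1 (MEK inhibitor against TCR). None of these reversed values had been called. Depth limits S1pr1 most, since its stimulated cultures held few reads, at levels of 0.03 to 0.17 FPKM, where 3 reads correspond to 0.0742 to 0.126 FPKM per library.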
